A study of Mus musculus with 4 samples.

Results

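The regions described here are accessible chromatin sites at the ends of protein-coding genes whose peak height differed least among 4 ATAC-seq libraries of mouse T lineage cells. Peaks of the 4 lists on chromosomes 1 to 19 and X were joined into union regions wherever they shared at least 1 bp, which gave 90270 regions. Of these, 37418 held a peak in every library, and 11841 of the 37418 lay within 1 kb of either annotated end of a protein-coding gene. The value of a region in a library was its highest fold, which the authors' peak caller gives as summit pileup over the background around it in the same library, divided by the median fold of that list. A region was taken as stable when the highest of its 4 values was under 1.5 times the lowest, and 9888 of the 11841 common gene-end regions were stable. Because the regions were chosen by their fold in these same 4 libraries, the small spread of that fold is a description of the choice and nothing is read from it. The share under the threshold was 83.5% at gene ends, against 64.3% of all common regions and 55.4% of the 25577 common regions away from gene ends. By gene, 10789 of 21631 protein-coding genes, or 49.9%, had a stable common region within 1 kb of an end, and these were 88.1% of the 12243 genes with any common gene-end region.

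ATAC-seq cuts and tags accessible DNA with the Tn5 transposase, so that fragments pile up where chromatin is open. The cells were taken from mice and were not treated. Scd1-deficient mice, which lack stearoyl-CoA desaturase 1, an enzyme that makes monounsaturated fatty acids, gave 1 library of naive CD4 T cells from the spleen and 1 library of DN3 cells from the thymus, and littermate controls gave 1 library of each cell type. DN3 cells were depleted of lineage-marked and CD4-bearing cells on beads and then sorted as CD44- CD25+ cells without CD4 or CD8, whereas naive cells were taken with a bead kit alone. Control titles carry the unexplained letters HZ, and the labels say neither how many animals a library holds nor which part of Scd1 was removed. With 1 library per group there was no replicate check and nothing was tested. The lists held 51309 peaks in naive knockout, 46585 in naive control, 76450 in DN3 knockout and 76828 in DN3 control cells. Intervals below are Wilson 95% intervals for shares and exact Poisson 95% intervals for fragments; both cover counting error only, since PCR duplicates may be among the fragments. A share of cells with an open site and the openness per cell cannot be told apart in such bulk libraries.

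Gene starts in mammals fall broadly into promoters rich in CpG dinucleotides, which tend to be open in most cell types and often serve genes that every cell needs, and promoters poor in CpG, which tend to serve genes with restricted expression. Factors that recognise GC boxes, ETS sites or the NRF1 site bind many promoters of the first kind. In the T lineage, DN3 cells rearrange and test the T cell receptor beta chain under Notch and pre-TCR signals, while naive CD4 T cells are resting cells that circulate through lymphoid organs.

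The labelled cell types were set against defining genes. All 12 naive CD4 markers examined, which included Cd4, Ccr7 and Lef1, had a gene-end region in each of the 4 libraries, but their summed scaled folds were lower in the naive libraries, at 9.75 in naive knockout and 9.556 in naive control, against 14.2 in DN3 knockout and 14.05 in DN3 control cells. Of 12 DN3 markers, 10 had a gene-end region in naive knockout, 9 in naive control, 12 in DN3 knockout and 12 in DN3 control cells, and the genes missing in some library were Ptcra, Rag1 and Rag2. Their summed scaled folds were 10.69, 9.51, 12.15 and 12.68 in the same libraries. Markers of B, myeloid, NK, erythroid, stromal and epithelial cells had gene-end regions for 12 of 26 genes in naive knockout, 12 of 26 in naive control, 14 of 26 in DN3 knockout and 16 of 26 in DN3 control cells, with summed scaled folds of 13.8, 12.7, 17.8 and 17.9 in the same libraries. Ms4a1, Csf1r, Mpo, Ncr1, Gata1, Hba-a1, Krt5 and Pecam1 were among those with none in any library, and the part of such cells in the results was not tested. Of these 26 genes, 8 had a stable common region and 3 another common region. Beside all these marker counts, 12243 of all 21631 protein-coding genes had a common gene-end region, and 6878, or 31.8%, had none in any library. Scd1 itself had a common gene-end region that was not stable, with folds of 6.37 in naive knockout, 6.69 in naive control, 8.86 in DN3 knockout and 9.41 in DN3 control cells. Its summits held 39, 50, 85 and 124 fragments in the same order of libraries. Since the deleted part is not stated, this region is no check of the genotype.

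Promoter windows of 7 stable regions show the kinds of sequence found under them. Each window is RefSeq sequence of GRCm38.p6, which has the coordinates of mm10, from 250 bases before to 50 after the listed gene start, 300 bases in all, written 5′ to 3′ on the strand of the gene. Capitals mark every match to the motifs searched, on either strand. Spats1 and Agtpbp1 were among the 10 stable regions with the smallest ratio of highest to lowest value, and Spats1, at chr17:45474889-45475188 on the minus strand, held a CCAAT box and no other motif searched. Agtpbp1, which encodes a carboxypeptidase that trims glutamates from tubulin, lies at chr13:59557253-59557552 on the minus strand and carried 9 GC boxes, some of them adjoining. Rpl37a, a protein of the large ribosomal subunit, at chr1:72711010-72711309 on the plus strand, and Atp5k, a subunit of ATP synthase, at chr5:108434350-108434649 on the minus strand, carried the NRF1 site, each as 2 matches that overlap on opposite strands, and Atp5k also an ETS site. Snrpc, a protein of the U1 splicing particle, at chr17:27839837-27840136 on the plus strand, carried an ETS, a RUNX and an AP-1 match. Runx3, a Runt-family transcription factor of the T lineage, at chr4:135120395-135120694 on the plus strand, and Lat, an adaptor of T cell receptor signalling, at chr7:126369519-126369818 on the minus strand, are shown because they are stable T cell genes with few CpG. They held 8 and 10 CpG dinucleotides, against 46 in Agtpbp1.
Spats1: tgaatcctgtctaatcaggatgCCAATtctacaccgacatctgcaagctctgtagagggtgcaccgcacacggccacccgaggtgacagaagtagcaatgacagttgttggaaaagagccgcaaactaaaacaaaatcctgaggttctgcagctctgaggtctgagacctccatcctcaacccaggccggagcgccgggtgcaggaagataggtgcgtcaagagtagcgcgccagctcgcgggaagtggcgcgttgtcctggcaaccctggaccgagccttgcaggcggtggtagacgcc
Agtpbp1: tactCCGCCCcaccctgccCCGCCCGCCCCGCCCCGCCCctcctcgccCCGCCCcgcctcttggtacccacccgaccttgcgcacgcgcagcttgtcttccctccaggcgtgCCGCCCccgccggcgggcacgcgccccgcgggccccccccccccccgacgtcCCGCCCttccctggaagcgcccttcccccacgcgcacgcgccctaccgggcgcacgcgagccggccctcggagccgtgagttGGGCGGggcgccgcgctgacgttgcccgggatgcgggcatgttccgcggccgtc
Rpl37a: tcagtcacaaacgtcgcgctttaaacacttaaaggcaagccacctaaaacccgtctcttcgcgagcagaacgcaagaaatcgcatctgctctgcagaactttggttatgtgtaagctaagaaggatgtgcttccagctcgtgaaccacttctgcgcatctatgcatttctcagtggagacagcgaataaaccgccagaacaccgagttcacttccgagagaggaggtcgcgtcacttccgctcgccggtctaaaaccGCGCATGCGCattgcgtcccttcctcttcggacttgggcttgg
Atp5k: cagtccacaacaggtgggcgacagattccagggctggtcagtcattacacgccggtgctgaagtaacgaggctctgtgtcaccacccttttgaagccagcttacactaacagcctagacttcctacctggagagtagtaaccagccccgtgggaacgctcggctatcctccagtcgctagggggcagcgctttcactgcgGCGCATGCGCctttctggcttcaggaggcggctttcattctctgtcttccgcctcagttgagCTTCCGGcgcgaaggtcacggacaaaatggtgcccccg
Snrpc: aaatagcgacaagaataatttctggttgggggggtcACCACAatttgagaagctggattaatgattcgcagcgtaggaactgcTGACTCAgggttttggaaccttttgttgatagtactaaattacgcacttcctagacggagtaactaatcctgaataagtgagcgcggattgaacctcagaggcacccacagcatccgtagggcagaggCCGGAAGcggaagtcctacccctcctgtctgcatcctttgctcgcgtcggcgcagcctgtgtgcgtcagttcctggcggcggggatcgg
Runx3: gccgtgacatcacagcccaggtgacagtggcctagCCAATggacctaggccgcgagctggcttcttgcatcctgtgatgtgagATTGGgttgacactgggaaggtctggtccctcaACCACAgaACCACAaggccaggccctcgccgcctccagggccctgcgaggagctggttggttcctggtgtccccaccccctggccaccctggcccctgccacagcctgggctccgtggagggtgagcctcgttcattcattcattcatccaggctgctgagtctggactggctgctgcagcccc
Lat: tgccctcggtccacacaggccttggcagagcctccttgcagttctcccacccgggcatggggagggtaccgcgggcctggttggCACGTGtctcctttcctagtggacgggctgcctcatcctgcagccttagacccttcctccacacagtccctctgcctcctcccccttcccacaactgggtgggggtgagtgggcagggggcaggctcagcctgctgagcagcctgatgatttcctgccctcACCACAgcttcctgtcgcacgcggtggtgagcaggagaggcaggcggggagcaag

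Most members stood above the list median in every library, with a lower quartile of 1.08 for the lowest of the 4 scaled folds. The smallest scaled fold was 0.207, and these folds also served to choose the members. Their median fold was 12.1 in naive knockout, 11.3 in naive control, 11.1 in DN3 knockout and 10.9 in DN3 control cells, whereas the 1953 common gene-end regions that were not stable had medians of 7.24, 5.89, 7.74 and 7.81 in the same libraries. The median ratio of highest to lowest value was 1.22 among the members, and 1019 common gene-end regions, or 8.61%, stayed under a ratio of 1.1. The share of stable regions was larger where the level, the geometric mean of the 4 scaled folds, was higher. At gene ends it was 53.3% (47.2 to 59.2) below a level of 0.5 and 64.4% (61.9 to 67.0) from 0.75 to 1. It was 94.1% (93.3 to 94.8) from 1.5 to 2 and 98.3% (97.6 to 98.8) above. Away from gene ends the shares at those levels were 55.4%, 41.4%, 74.8% and 89.9%, so that the gene-end share was the larger at every level shown but the lowest.

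**Figure D1:**
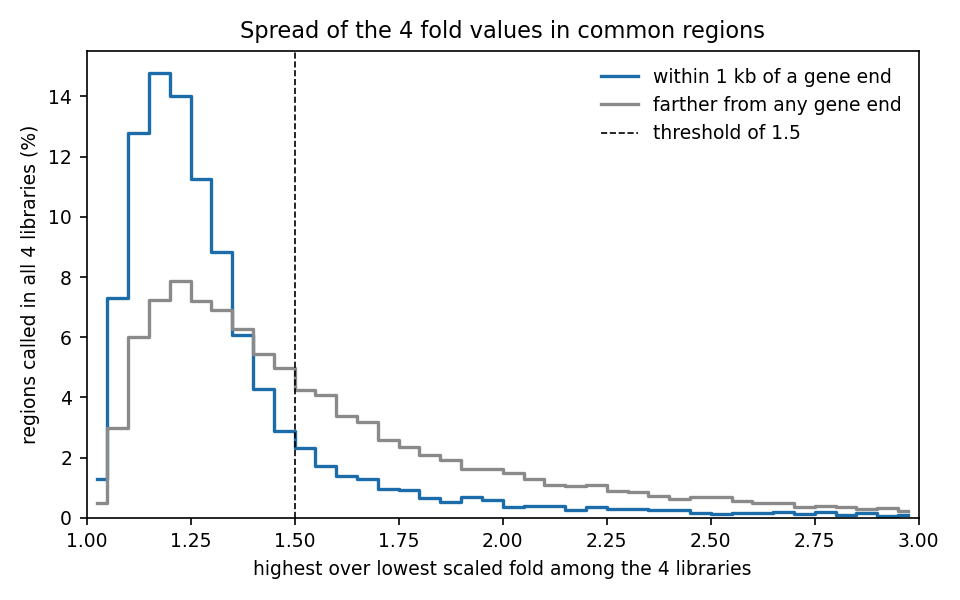
Share of common regions (vertical axis, percent) by the ratio of the highest to the lowest scaled fold among the 4 libraries (horizontal axis, bins of 0.05), for the 11841 regions within 1 kb of a gene end and the 25577 farther away. The dashed line is the threshold of 1.5; ratios of 3 and more are not drawn.

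The regions with the smallest ratio were at genes of unlike function. Spats1, a gene named for its serine-rich protein of the testis, had folds of 14.1 in naive knockout, 13.6 in naive control, 11.8 in DN3 knockout and 12.0 in DN3 control cells, a ratio of 1.01 once each was divided by its list median. Tob2, a gene of the antiproliferative BTG and TOB family, had lower folds of 6.81, 6.598, 5.71 and 5.90 in the same libraries, with the 4 summits within 2 bp. Its summits lay a mean of 1585 bp before the listed start, although the region itself reached the start. Agtpbp1 had folds of 13.5 in naive knockout, 13.2 in naive control, 11.3 in DN3 knockout and 11.6 in DN3 control cells. The other 7 of the 10 were Poldip3, Lrfn1, Iars2, Ccdc115, Isyna1, Ptpn18 and Zfp933, with ratios of up to 1.02. In all 3 described, the unscaled naive folds stood above the DN3 folds, as the naive list medians of 7.95 in knockout and 7.68 in control cells stood above the DN3 medians of 6.63 in knockout and 6.82 in control cells.

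The members with the largest lowest value were at Dynlt1b, Gm13288, Mfsd8, Gm13277, 2310009B15Rik, Srp54a, Kbtbd6, 9130019O22Rik, Lipo3 and Zfp33b. Mfsd8, which encodes a lysosomal membrane transporter, reached 30.6-fold in naive knockout, 26.0 in naive control, 29.0 in DN3 knockout and 27.2 in DN3 control cells, with summits within 2 bp of each other. Srp54a, a subunit of the signal recognition particle, reached 24.1, 21.8, 24.1 and 24.7 in those libraries. Several of the 10 belong to families with close copies, and how reads that match several places were placed is not given in the sources used here, so the values of Dynlt1b, Gm13288, Gm13277 and Srp54a are uncertain. At the other extreme, the weakest members were at Klf4, Lyl1, Rab19, Crip1 and Bahcc1. Klf4, a zinc finger factor linked to quiescence in T cells, had folds of 1.69 in naive knockout, 1.98 in naive control, 1.83 in DN3 knockout and 1.80 in DN3 control cells over a high local background of 55.7, 68.7, 48.6 and 52.9 fragments.

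At the threshold the values of neighbours were alike. Just inside stood Gal3st3, Gas2l2 and Gm30990, with ratios of 1.4996, 1.4992 and 1.4992, and just outside stood Twsg1, Itga2 and Flot2, at 1.5001, 1.5004 and 1.5005. Gm30990 had folds of 6.38 in naive knockout, 5.90 in naive control, 7.48 in DN3 knockout and 7.85 in DN3 control cells. Twsg1, a secreted modulator of BMP signalling, had folds of 11.3, 10.1, 13.1 and 11.8 in those libraries.

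Which library was highest within a member depended on the scaling. With the list medians, DN3 knockout held the highest value in 5745 members and naive control the lowest in 5388. With the medians of the common regions in their place, naive control was highest in 3650 and DN3 control lowest in 3614. The median ratio of naive knockout to naive control was 1.04 with list medians and 0.976 with common-region medians, so its direction flipped, while that of DN3 knockout to DN3 control was 1.05 and 1.03. The ratio of naive to DN3 flipped as well, from list-median values of 0.906 in knockout and 0.907 in control cells to common-region values of 1.00 in knockout and 1.05 in control cells. The rule holds all of these close to 1, and no direction between genotypes or cell types is read from them.

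A fold is a quotient, and the summit fragments are its upper part, so they are not independent of the rule. A smaller fragment ratio among members than among other regions is partly set by the choice, and how far was not tested. Both parts of the quotient, whole summit fragments and the background, were recovered from the fold together with the −log10 p of the same peak. Without correction for depth, the members had a median of 404 summit fragments in naive knockout, 498 in naive control, 316 in DN3 knockout and 327 in DN3 control cells, over median local backgrounds of 30.2, 41.3, 26.6 and 28.1. Divided by the median of each list, the summit fragments of 7400 members, or 74.8% (74.0 to 75.7), also stayed within a ratio of 1.5, against 466 of the 1953 other common gene-end regions, or 23.9% (22.0 to 25.8). In 1066 members, or 10.8%, the scaled fragments differed by a ratio of 2 or more although the fold did not. Both DN3 libraries stood above both naive libraries in 959 of those 1066, and the reverse held in 102. The other common gene-end regions leaned the same way. There the ratio was 2 or more in 1157, or 59.2%, with DN3 above in 1049 and naive above in 97.

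Acvr2b, an activin receptor, was the extreme case, named after its values were seen. Its folds were 8.42 in naive knockout, 5.89 in naive control, 7.56 in DN3 knockout and 7.21 in DN3 control cells. Its summits held 52 fragments (95% interval 38.8 to 68.2) in naive knockout and 35 (24.4 to 48.7) in naive control cells, against 364 (328 to 403) in DN3 knockout and 372 (335 to 412) in DN3 control cells. The local background differed in the same way, at 5.29 and 5.12 fragments in naive knockout and control and at 47.3 and 50.7 in DN3 knockout and control cells, so that the quotients were close while the fragment counts were not. Zfp503, Kctd1, Epha2, Oaf and Padi4 followed, with scaled fragment ratios of 12.2, 10.9, 10.8, 10.2 and 9.50. Cebpa, a myeloid transcription factor, was likewise stable in fold, at 8.32, 8.35, 9.03 and 7.95, with 66 fragments in naive knockout, 69 in naive control, 262 in DN3 knockout and 251 in DN3 control cells. Stable therefore means here a stable height over the local background. The number under the ratio falls to 3019 when summit fragments over the lowest background of each list replace the fold. It is 7866 with summit fragments over the list median, so the size of the fall depends on the divisor.

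**Figure D2:**
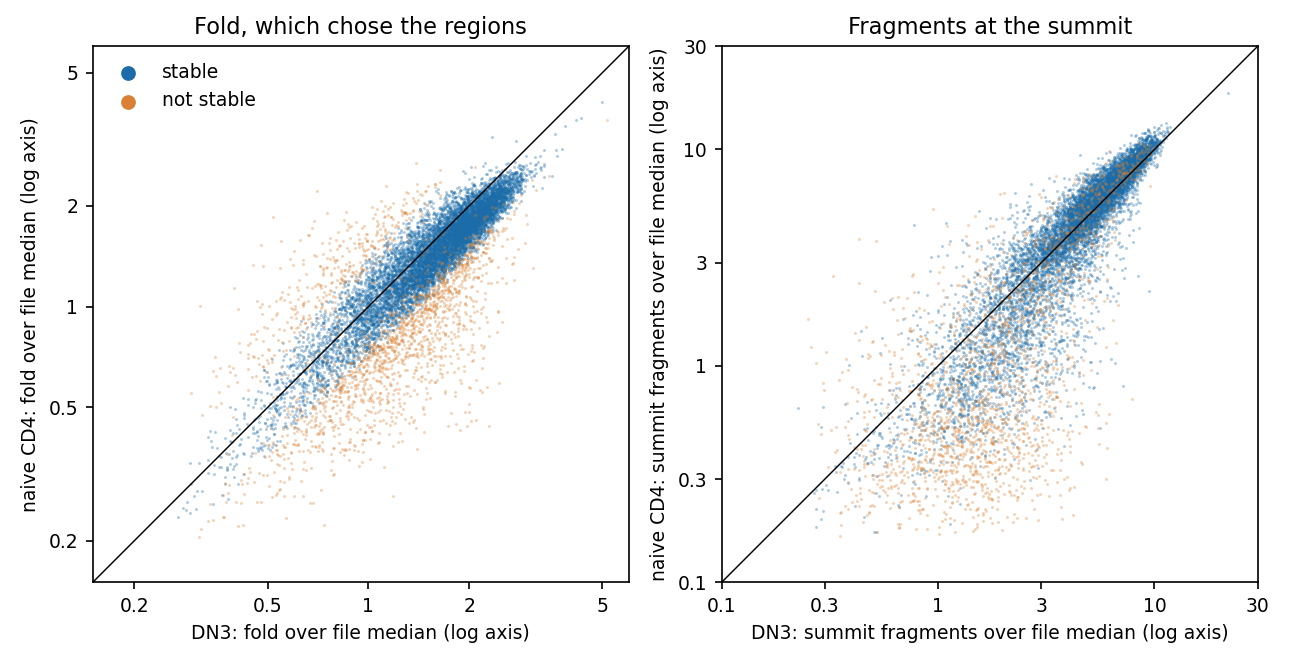
Naive CD4 (vertical axis) against DN3 (horizontal axis) values of the 11841 common gene-end regions, each the mean of the knockout and control library, on log axes. Left, fold over the list median, which chose the regions; right, summit fragments over the list median, where members with few fragments fall mostly below the line of equality, that is, lower in naive cells.

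The strand of the nearby gene was known for 8102 members, and there the start of transcription could be told from the end. A gene start lay within 1 kb of 7408 of them, or 91.4% (90.8 to 92.0), and a gene end alone near 694, or 8.57% (7.98 to 9.20). Genes of unknown strand were left out here, so regions at an end alone may also lie near the start of such a gene. Among the other common gene-end regions with a known strand, a start lay near 70.0% (67.7 to 72.3) and an end alone near 29.97% (27.7 to 32.3). Starts on both strands, as at divergent promoters, lay near 882 members, or 10.9%, against 40, or 2.56%, of the other regions. Put the other way, 95.7% of common regions with starts on both strands, 87.1% of those with a start and 59.7% of those with an end alone were stable. Members at an end alone were also weaker, with a median level of 1.19, against 1.603 at a start. Because stable shares grew with level, the part of the level in this difference of position was not tested.

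The summits sat close to the start itself. On chromosomes with listed starts, the mean of the 4 summits lay within 250 bp of a start in 6044 of 9659 members, or 62.6% (61.6 to 63.5), against 718 of 1909 other common gene-end regions, or 37.6% (35.5 to 39.8). These shares are low estimates, since the table does not list a start for every gene. Among the 7025 members with a start within 1 kb of the mean summit, the median position was 12.5 bp upstream of the start, and 55.8% lay upstream. The 4 summits of a member spanned a median of 55 bp, with a lower quartile of 8 bp, against a median of 74 bp and a lower quartile of 34 bp in the other common gene-end regions. Stable common regions away from gene ends had a median of 56 bp, so the median span was not particular to gene ends. They lay within 50 bp of each other in 4576 members, or 46.3%, and in 666, or 34.1%, of the others. Snrpc, whose sequence is shown above, had all 4 summits at the same base, 13 bp before the listed start.

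**Figure D3:**
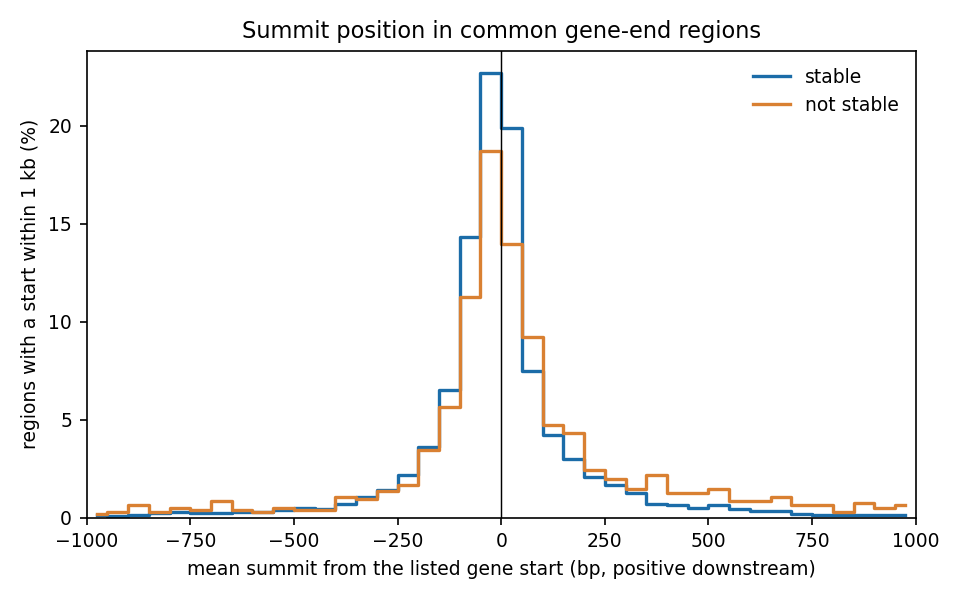
Position of the mean of the 4 summits relative to the listed gene start (horizontal axis, bp, bins of 50 bp) as a share of the regions with a start within 1 kb (vertical axis, percent), for 7025 stable and 952 other common gene-end regions. The stable regions are the more concentrated around the start.

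The members were broad. Their peaks had a median summed width of 1218 bp in naive knockout, 1300 bp in naive control, 1276 bp in DN3 knockout and 1301 bp in DN3 control cells. Peaks of the other common gene-end regions were narrower, with medians of 848, 854, 1023 and 1047 bp in those libraries. Within a region, the widest of the 4 was a median of 1.16 times the narrowest among members and 1.54 times among the others. Peak width also depends on the depth and fragment length of a library, whose part was not tested. The other regions also had fewer summit fragments, with medians of 65, 71, 114 and 126 in those libraries. The medians of the members were 404, 498, 316 and 327. The part of this difference in the widths and in the summit spans above was not tested. A single peak per library made up 9327 members, or 94.3%. By the narrowest of the 4 library widths, the widest were at Tgif1, Jade2, Cdk6, Gfi1 and Ssbp4, while single libraries held wider peaks at other members, such as Zfp503. Tgif1, a homeodomain repressor, spanned chr17:70848941-70853824 with folds of 3.33 in naive knockout, 3.42 in naive control, 3.17 in DN3 knockout and 3.22 in DN3 control cells, and its highest summits lay up to 3002 bp apart. Gfi1, a zinc finger repressor of early T cell development, had folds of 5.53, 5.57, 5.95 and 6.27 and summits within 164 bp.

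Most members stood near a single gene. Exactly 1 gene had an end within 1 kb of 8025 members, 2 genes did for 1802 and 3 or more for 61. The densest was at Tomm6, a subunit of the mitochondrial import channel, with 5 genes, followed by Mrps34 with 4 and Timm8b with 3. The folds at Tomm6 were 12.2 in naive knockout, 10.6 in naive control, 11.2 in DN3 knockout and 11.1 in DN3 control cells. The stable share of common gene-end regions differed little by chromosome, from 80.9% on chromosome 3 to 87.5% on chromosome 19, with 83.7% on X.

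Promoter windows were compared by what lay over them in the 4 lists. Of 21020 windows of 17251 genes, 9062 overlapped a stable common gene-end region, 1069 another common gene-end region, 3064 a region of 1 to 3 libraries and 7825 none. The windows of stable regions held a median of 22 CpG dinucleotides, against 19 under the other common regions, 3 where no region was called and 13 over all windows. The observed number over that expected from the base content was 0.802, against 0.6997, 0.195 and 0.574 in those sets. Within windows under a common region the stable share was 68.9% (63.6 to 73.8) with 0 to 4 CpG, 81.8% (79.0 to 84.4) with 5 to 9 and 89.4% (88.2 to 90.5) with 10 to 19. It was 91.6% (90.7 to 92.5) with 20 to 29 and 91.3% (90.1 to 92.3) with 30 or more, so that the share was larger in each class up to 20 to 29 CpG and the last 2 intervals overlapped.

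Motif matches in the windows were counted on both strands, allowing overlaps, and describe letters only. The ETS motif CCGGAAG was in 21.5% (20.6 to 22.3) of windows under stable regions, against 10.4% (8.70 to 12.4) under the other common regions, 2.43% with no region and 11.7% of all windows. The NRF1 motif GCATGCGC was in 6.29% (5.81 to 6.81), against 2.71% (1.90 to 3.87), 0.844% and 3.54%, and the YY1 motif AAGATGGC in 5.10%, against 2.71%, 1.201% and 3.06%. The ZNF143 core ACTACAA was in 4.62% (4.21 to 5.08), against 2.99% (2.13 to 4.195), 3.26% and 3.64%. For each of these 4 the intervals of stable and other common regions did not overlap, nor did those of the CCAAT box and the E protein motif below. For ZNF143 and the E protein motif the gap was narrow. The intervals treat windows as independent, although some genes have several windows. The GC box GGGCGG separated windows with a region from those without more than it separated the common regions, at 69.5% (68.6 to 70.5) under stable regions, against 65.9% (63.0 to 68.6) under the other common regions, 13.7% with no region and 46.7% of all windows.

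The shares of the remaining motifs stood closer to each other, as a ratio, between the 2 kinds of common region. The CCAAT box CCAAT was in 39.1% (38.1 to 40.1) of windows under stable regions, 33.8% (31 to 36.7) under the other common regions, 41.1% with no region and 38.5% of all windows. The TATA box TATAAA was in 5.79%, 7.02%, 23.4% and 12.7%, and the AP-1 motif TGANTCA in 3.76%, 5.33%, 11.4% and 7.04%, in the same sets of windows. Both had their lowest share under stable regions, though the intervals overlapped those of the other common regions. The E protein motif CAGCTG was in 13.6% (12.9 to 14.3) under stable regions and 16.6% (14.5 to 18.9) under the other common regions, with 15.7% of all windows. The RUNX motif TGTGGT was in 11.3%, 11.9% and 14.7%, and the TCF/LEF motif CTTTGA in 10.8%, 12.2% and 14.4%, of windows under stable regions, under the other common regions and over all windows. For both of these the intervals under the stable and the other common regions overlapped. The CRE TGACGTCA, the E-box CACGTG, the GATA motif AGATAA and the interferon-stimulated response element were in 3.61%, 11.0%, 5.41% and 2.95% of windows under stable regions, in 3.27%, 9.54%, 4.86% and 3.56% under the other common regions, with overlapping intervals, and in 2.26%, 7.91%, 9.69% and 3.36% of all windows. Windows under stable regions differ from all windows in base content, and its part in these shares was not tested. The stable and the other common regions also differed in level, with medians of 1.56 and 0.991. The part of level in the motif shares was not tested either.

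**Figure D4:**
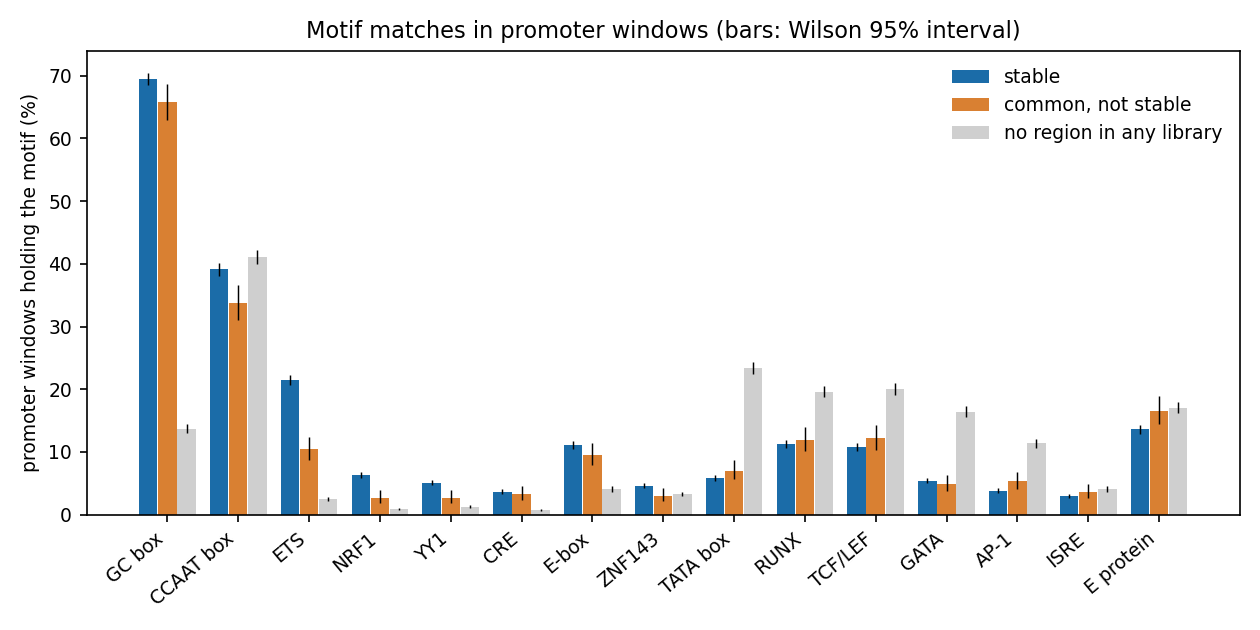
Share of promoter windows (vertical axis, percent, with Wilson 95% intervals) that hold each of 15 motifs, for 9062 windows under stable regions, 1069 under other common gene-end regions and 7825 with no region in any library. ETS, NRF1, YY1, ZNF143 and the CCAAT box are higher under stable regions than under the other common regions, and the E protein motif is lower. TATA and AP-1 are highest where no region was called.

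Genes that every cell uses were nearly all among the members. Over 11 lists with 548 genes of basic cell functions, 520, or 94.9% (92.7 to 96.4), had a stable common gene-end region, beside 49.9% of all protein-coding genes. By list these were 76 of 79 cytosolic ribosomal proteins, 40 of 42 translation factors, 33 of 36 aminoacyl-tRNA synthetases, 30 of 32 proteasome genes and 41 of 42 spliceosome genes. They were also 42 of 43 genes of RNA polymerase II and its general factors, 74 of 77 mitochondrial ribosome genes, 72 of 76 of oxidative phosphorylation, 28 of 29 chaperonin and heat shock genes, 39 of 41 vesicle coat genes and 45 of 51 of DNA replication and the cell cycle. Of the 531 with a common gene-end region, 97.9% were stable, beside 88.1% of such genes in all. Their median level was 1.80, and 94.1% of all common gene-end regions at a level from 1.5 to 2 were stable. The part of level in the larger share was not tested. In scaled summit fragments, 484 of the 520 genes, or 93.1%, also stayed within a ratio of 1.5, beside 74.8% of all member regions. The 2 shares are not alike, since a gene was counted by the smallest ratio among its stable regions.

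Rpl37a had folds of 19.2 in naive knockout, 17.2 in naive control, 15.8 in DN3 knockout and 16.3 in DN3 control cells. Farsa, a subunit of the phenylalanyl-tRNA synthetase, had folds of 21.9, 18.5, 17.4 and 17.1 in those libraries, with all 4 summits at the same base. Psmd12, a subunit of the proteasome lid, had folds of 19.8 in naive knockout, 18.2 in naive control, 19.5 in DN3 knockout and 17.9 in DN3 control cells. The stable genes named for each list here and below were taken by their largest lowest value, so they are high peaks by choice, and the median level of the lists of basic functions was 1.80, beside 1.54 over all genes with a common gene-end region. Snrpc had folds of 20.1, 17.3, 18.05 and 17.9, and Mrps17, a protein of the small mitochondrial ribosomal subunit, 21.7, 18.8, 19.9 and 18.2, in naive knockout, naive control, DN3 knockout and DN3 control cells. Atp5k had folds of 19.8, 18.1, 18.6 and 17.4 in the same order. Prim1, the catalytic subunit of DNA primase, which lays the primers of DNA synthesis in dividing cells, had folds of 20.7 in naive knockout, 17.9 in naive control, 17.9 in DN3 knockout and 16.9 in DN3 control cells.

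Of these 548 genes, 11 had a common region that was not stable. Psmb1, Sf3b1, Mrps23, Sec23a and Rpl37 had ratios near the threshold, 1.52, 1.62, 1.52, 1.504 and 1.51. Tars2, the mitochondrial threonyl-tRNA synthetase, had the largest ratio, 2.10, with folds of 11.2 in naive knockout, 10.6 in naive control, 4.45 in DN3 knockout and 5.67 in DN3 control cells. Its summits held 192 and 234 fragments in naive knockout and control, against 24 and 33 in DN3 knockout and control cells. E2f2, an E2F factor of the cell cycle, had folds of 7.58, 6.82, 3.46 and 3.48, with 147, 166, 156 and 156 fragments. Divided by the list medians those fragments were 1.96, 1.61, 2.48 and 2.26, so that E2f2 was lower in naive cells by fragments and higher by fold. Tyms, the thymidylate synthase, had folds of 14.9, 11.4, 15.9 and 14.4 and fragments of 98 in naive knockout, 91 in naive control, 280 in DN3 knockout and 268 in DN3 control cells.

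Genes of lipid metabolism were examined because Scd1 makes monounsaturated fatty acids. A stable region stood at 65 of 79 of them, or 82.3% (72.4 to 89.1), beside 49.9% of all protein-coding genes. These were 65 of the 68 with a common gene-end region, or 95.6%, beside 88.1% of such genes in all. Their median level was 1.62, in the same level class from 1.5 to 2 with its stable share of 94.1%. By list these were 19 of 28 genes of fatty acid synthesis and desaturation, 22 of 25 of cholesterol synthesis and uptake and 24 of 26 of fatty acid oxidation and lipid storage. Acaca, the acetyl-CoA carboxylase that starts fatty acid synthesis, had folds of 16.4 in naive knockout, 13.7 in naive control, 15.1 in DN3 knockout and 16.2 in DN3 control cells. Fads1, the delta-5 desaturase, had folds of 13.6, 12.2, 12.1 and 11.6, and Acat2, an acetyl-CoA acetyltransferase at the head of cholesterol synthesis, 17.4, 16.4, 16.8 and 16.4, in those libraries. Cpt2, a carnitine palmitoyltransferase of mitochondrial fatty acid oxidation, had folds of 19.7 in naive knockout, 17.9 in naive control, 17.8 in DN3 knockout and 18.4 in DN3 control cells. The rule bounds the scaled values of these 4 genes, as of every member, and no difference between genotypes is read from them.

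The 3 lipid genes whose common region was not stable were all desaturase or synthesis genes, and Fads2, the delta-6 desaturase, had the largest ratio, 2.43. Its folds were 6.63 in naive knockout, 3.60 in naive control, 7.29 in DN3 knockout and 7.75 in DN3 control cells, and its summits held 30 and 21 fragments in naive knockout and control, against 369 and 416 in DN3 knockout and control cells. Fads3, a neighbour of the same family, had folds of 11.9, 5.89, 7.93 and 7.92 with 55, 35, 151 and 152 fragments. Scd1, given above, was the third. Of 14 genes of Wnt lipidation and the beta-catenin core, 12, or 85.7% (60.1 to 96.0), had a stable region, beside 49.9% of all genes, among them Porcn, the acyltransferase that attaches a monounsaturated fatty acid to Wnt proteins, with folds of 12.1 in naive knockout, 12.4 in naive control, 12.1 in DN3 knockout and 12.3 in DN3 control cells. In scaled summit fragments 7 of these 12 genes, or 58.3% (32.0 to 80.7), stayed within a ratio of 1.5. That interval holds the 74.8% of member regions, although genes were counted by the smallest ratio among their stable regions.

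T cell genes kept a smaller share of their common regions within the threshold. Of 122 genes in 5 lists, 69, or 56.6% (47.7 to 65.0), had a stable region, close to the 49.9% of all genes, although 102 had a common gene-end region, of which 67.6% were stable, beside 88.1% over all genes. By list these were 17 of 25 T lineage transcription factors, 10 of 23 Notch and pre-TCR genes, 19 of 29 TCR signalling genes, 14 of 25 genes of naive cell homing and quiescence, and 12 of 26 effector and helper genes. Their regions were also weaker, with a median level of 1.02, against 1.80 in the lists of basic functions. The medians of the 5 lists ran from 0.9465 to 1.138, on both sides of 1. Of all common gene-end regions, 64.4% were stable at a level from 0.75 to 1 and 75.4% in the class that begins at 1. The 67.6% of T cell genes lay between these shares, although it counts genes and they count regions. The part of level in the smaller share of T cell genes was not tested. The share of the 122 moved with the scaling, to 67.2% with medians of the common regions. In scaled summit fragments 50 of the 69 genes, or 72.5%, stayed within a ratio of 1.5, beside 74.8% of all member regions. Genes were again counted by the smallest ratio among their stable regions.

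Runx3 had folds of 12.7 in naive knockout, 11.8 in naive control, 10.9 in DN3 knockout and 9.76 in DN3 control cells, with 406, 541, 406 and 426 fragments and summits within 5 bp. Lat had folds of 11.8, 11.4, 11.3 and 11.7, and Tcf12, an E protein of early T cells, 10.6, 10.4, 9.12 and 9.19, in those libraries. Themis, a regulator of thymocyte selection, had folds of 14.7 in naive knockout, 10.9 in naive control, 12.0 in DN3 knockout and 13.3 in DN3 control cells. Among Notch genes the stable ones included Ncstn, Adam10 and Maml1, and Ncstn, the nicastrin subunit of gamma-secretase, had folds of 16.8, 16.2, 15.4 and 15.1. Itgal, the alpha chain of LFA-1, had folds of 12.4 in naive knockout, 11.0 in naive control, 9.93 in DN3 knockout and 9.58 in DN3 control cells. Tigit, an inhibitory receptor, was stable in fold at 11.0, 10.8, 11.0 and 10.4 but not in fragments, with 295 and 399 in naive knockout and control, against 122 and 114 in DN3 knockout and control cells.

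Common regions that were not stable stood at 33 T cell genes. Both DN3 folds stood above both naive folds in 28 of them and below in 4. Over all 1953 common gene-end regions that were not stable, these counts were 1436, or 73.5%, and 376, or 19.25%. The scaled fragments put DN3 above in 14 of the 33 and naive above in 12. Among the 1436 of all 1953 with DN3 higher in fold, fragments put DN3 above in 1109 and naive above in 145. Among the 376 with naive higher in fold, fragments put DN3 above in 116 and naive above in 168. Il7r, the interleukin-7 receptor chain that naive cells need to survive, had folds of 3.45 in naive knockout, 2.75 in naive control, 8.52 in DN3 knockout and 8.43 in DN3 control cells, but 163 and 189 fragments in naive knockout and control, against 126 and 133 in DN3 knockout and control cells. Its local background was 46.6 and 68.1 in naive knockout and control and 13.9 and 14.9 in DN3 knockout and control cells. Ccr7, a homing receptor for lymph nodes, had folds of 5.48, 4.93, 13.2 and 12.7 with 489, 741, 346 and 381 fragments, and Klf2, a factor of naive cell quiescence, 6.16, 6.34, 9.85 and 10.3 with 627, 920, 388 and 395. Divided by the list medians, the fragments of Ccr7 were 6.52 and 7.19 in naive knockout and control, against 5.49 and 5.52 in DN3 knockout and control cells, and those of Klf2 8.36 and 8.93, against 6.16 and 5.72. For Il7r they were 2.17 in naive knockout and 1.84 in naive control cells, and the DN3 values lay between these. A lower fold in naive cells thus stood at these 3 genes beside a higher local background and scaled fragments that were not lower as a group. Ifng, the gene of interferon gamma, differed the same way in both measures, with folds of 5.16, 5.07, 14.7 and 14.7 and 23, 30, 141 and 167 fragments. Ikzf3, an Ikaros-family factor, went the other way in fold, with 7.83 in naive knockout, 7.89 in naive control, 1.96 in DN3 knockout and 2.27 in DN3 control cells. Its fragments are not given here.

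**Figure D5:**
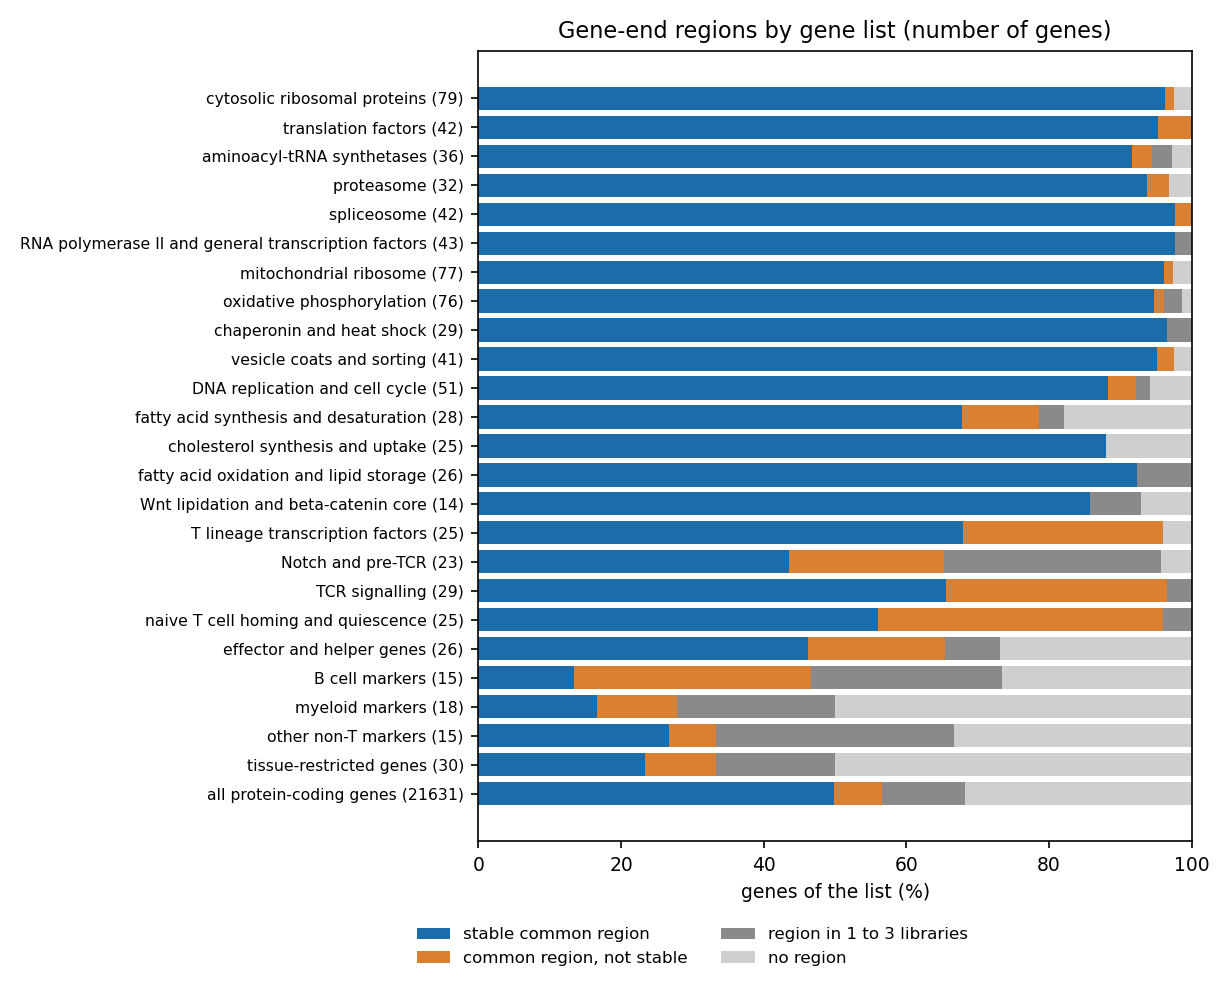
Share of the genes of each list (horizontal axis, percent, number of genes in brackets) with a stable common gene-end region, a common region that was not stable, a region in 1 to 3 libraries or none, with all 21631 protein-coding genes in the bottom bar. The 11 lists of basic cell functions reach between 88.2% and 97.7% stable, and the 4 lists of other cell types or restricted tissues between 13.3% and 26.7%.

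Markers of other cells and tissue-restricted genes were seldom among the members, at 16 of 78, or 20.5% (13.0 to 30.8), beside 49.9% of all genes. These were 2 of 15 B cell markers, 3 of 18 myeloid markers, 4 of 15 other non-T markers and 7 of 30 tissue-restricted genes. No region was called in any library at 33 of the 78, beside 6878, or 31.8%, of all 21631 protein-coding genes. Of the 27 with a common gene-end region, 59.3% were stable, beside 88.1% of such genes in all. The B cell genes were Btk, a kinase also used in myeloid cells, with folds of 15.2 in naive knockout, 14.8 in naive control, 12.9 in DN3 knockout and 13.4 in DN3 control cells, and Cd79a, a chain of the B cell receptor, with folds of 2.99, 2.62, 2.44 and 2.39 over backgrounds of 95.7, 138, 65.5 and 70.7 fragments. Each of these 2 regions also lay within 1 kb of another gene. Cd68, a lysosomal protein of macrophages, had folds of 10.9, 10.5, 10.5 and 10.4 and likewise shared its region with another gene. Syn1, a synapsin of neurons, had folds of 13.4 in naive knockout, 13.5 in naive control, 11.8 in DN3 knockout and 11.7 in DN3 control cells, and Ckm, the muscle creatine kinase, 13.9, 12.7, 10.4 and 10.8. A peak at such a gene's end is a statement about position only, and summits of several lay far from the end itself, such as Col1a1 at 981.5 bp and Gh at 864.75 bp.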

How the data were processed

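The labels' genotype and cell type put the 4 ATAC-seq peak lists into 4 groups of 1 library. The submitters' processing notes name Trimmomatic, BWA, MACS2 and the build mm10; not given in the sources used here are versions, MACS2 settings, duplicate handling and any read shift. The authors called peaks for each sample separately. The deposited fold is a ratio of pileup to local background, and the deposited −log10 p and −log10 q belong to the summit of that library. The deposited score was not used. Whole fragments at the summit were recovered for every peak from the fold and −log10 p, taking the fold as (fragments + 1) over (background + 1), within 0.05 of a whole number. No total read count was used.

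The RefSeq table of GRCm38.p6 gave 21631 protein-coding genes, of which 17251 had promoter windows with strand. The Y chromosome was left out. The steps were tested on simulated lists. The members, the 24 gene lists (841 genes, all matched) and the motifs were chosen with earlier results of these data known. A region was named by the gene whose end lay nearest its mean summit. Named were the 10 with the smallest ratio, the 10 with the largest lowest value, the 5 with the smallest highest value, the 3 on either side of the threshold, per list up to 4 stable regions by the largest lowest value and 2 others by the largest ratio, the 5 widest by the narrowest library, the 3 with the most genes and Scd1; the text gives values for a part of these. Regions with the largest fragment ratio were named after their values were seen. Python 3.11.15 with numpy 2.4.6, pandas 2.3.3, scipy 1.17.1 and matplotlib 3.10.9 was used.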

Additional observations from a re-analysis of the deposited data

Results flagged for a closer look

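The Y chromosome, which the comparisons left out, also held common regions: 9 of its 13 union regions were called in all 4 libraries. The labels do not give the sex of the mice.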

How the results depend on the processing

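The number of stable regions was 5942, or 50.2% of common gene-end regions, with the stricter of 2 other ratios and 3019 with summit fragments over the lowest background of each list, which was chosen after seeing the data. Under the other alternatives it stayed within 1.5 times the reported 9888, from 7866 with summit fragments over the list median to 11195 with a ratio of 2. Leaving out each library in turn, also chosen after seeing the data, gave 10135 to 10723. With fewer libraries the ratio of the same peaks cannot grow, and fewer peaks are needed for a common region. A rise was therefore largely built in, and these counts are no check on the 9888. With that stricter ratio, the share at a gene start was 93.3%, the DN3 knockout and control widths 1295 and 1319 bp, the share of genes with a stable region 67.7% in the basic lists, 55.7% in the lipid lists and 25.4% in the T cell lists, and the CCAAT and ETS shares 37.0% and 22.7%. With a ratio of 2, the share at a gene start was 89.0%, the widths 1199, 1281, 1259 and 1285 bp in naive knockout, naive control, DN3 knockout and DN3 control cells, and the gene shares 96.7% in the basic lists, 77.9% in the T cell lists and 33.3% in the markers of other cells. A window of 500 bp gave a start share of 93.9%, and medians of the common regions a T cell share of 67.2%. The other values stayed within the interval of the reported one. No paired analysis was possible because each group has 1 library and no test was run. Depth limits the weak regions: Gal3st3, just inside the threshold, had 38 and 28 fragments in naive knockout and control and 48 and 60 in DN3 knockout and control cells.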
